A study of Drosophila melanogaster with 2 samples.

Results

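The H3T3ph enriched regions of the 3L pericentromere are those on chromosome arm 3L of the dm3 genome whose midpoint lies at or beyond position 22400000, which is the end of the arm next to the centromere. The deposited list holds 504 such regions of 6387 in all, or 7.89% of the list. They were chosen from the list by position, so neither their width nor their reads entered that choice. The list itself holds only regions called for an excess of IP over input reads. The data came from S2 cells, a cultured *Drosophila melanogaster* cell line of embryonic origin, grown in Schneider's medium with 10% serum and given no other treatment in the labels. One set of DNA fragments was isolated with a rabbit antibody against histone H3 phosphorylated on threonine 3 (IP), and input DNA served as the control. There was 1 library of each kind, so that none of the values below has a replicate check, no p-value was computed, and the intervals compare these 2 libraries only. No source used here states a selection of cells by cell cycle stage, and the part of mitotic and of interphase cells in the signal was not tested.

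Phosphorylation of threonine 3 on histone H3 is laid down by the kinase haspin, and in mitosis the mark is known as a docking site for the chromosomal passenger complex at centromeres. Pericentric heterochromatin is the compact, repeat-rich and gene-poor chromatin that flanks the centromere. In flies it carries histone H3 methylated on lysine 9 and its reader HP1a, and genes placed beside it by a chromosome rearrangement are silenced in a patchy way. The assembled arm 3L runs into this heterochromatin at its centromeric end. 3LHet is a separate sequence of the same genome build, made of heterochromatic scaffolds assigned to 3L but not joined to the arm. The authors kept only reads with a single placement in dm3. Sequence present in dm3 in identical copies therefore does not contribute to the arm or to 3LHet. This does not cover copies that are absent from dm3.

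H3T3ph regions were packed far more densely in the pericentromere than along the rest of the arm. The 504 regions made up 61.2% of the 823 regions on 3L and 71.6% of the bp that they cover, on 8.70% of its length. Their density was 236.0 regions per Mb over 2.14 Mb, against 14.2 per Mb over the 22.4 Mb of the rest of 3L, where 319 regions were listed. The pericentromere was thus 16.6 times as dense, with a 95% interval from 14.4 to 19.1 that takes regions as independent, which neighbors are not. Regions covered 26.1% of the pericentromere, or 557.2 kb, and 0.987% of the rest of the arm. The size of this contrast depended on the list. It was 30.8 when regions with a deposited adjusted p below 0.01 were kept, 96.5 with p below 0.001, and 10.0 when regions no more than 500 bp apart were joined into 1.

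The density on 3LHet was close to that of the pericentromere. It held 668 regions over 2.55 Mb, or 262.4 per Mb, and they covered 20.8% of its length. The ratio of pericentromere to 3LHet was 0.899 for density, with an interval from 0.80 to 1.01 that includes 1, and 1.25 for covered share. Regions of the pericentromere thus spanned more sequence with this list and border. With the border at 22 Mb their covered share was 22.3%, nearer to that of 3LHet, and the ratio of covered shares was not recomputed. The size of the difference in number per Mb depended on the list and the border, and its order changed only with joining. The density ratio was 0.802 with a deposited p below 0.001 (interval from 0.675 to 0.95) and 0.771 with the border at 22 Mb (0.686 to 0.866), and it passed to the other side of 1, at 1.03 (0.878 to 1.22), after neighbors within 500 bp had been joined.

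Across the border the density did not rise gradually. The last region outside the border spanned 3L:22249799-22249800, 2 bp with 11 IP reads and no input read. The first one inside spanned 3L:22444522-22445341, 820 bp with 215 IP and 163 input reads. Between them lay 194.7 kb without a listed region, so that the border falls in an empty stretch, 150.2 kb beyond the last outside region and 44.5 kb before the first inside one. In the 2 Mb of 3L before the border there were 33 regions, 16.5 per Mb, and no 100 kb bin there held more than 5. Their number per Mb was close to that of the whole rest of the arm, but they were wider, with a median of 864 bp, and covered 1.94% of these 2 Mb.

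Just inside the border stood a compact block of regions. It ran from 22444522 to 22713535, 269.0 kb with 107 regions, and will be called the arm-side block. The number of regions climbed through it, with 16, 33 and 55 in successive 100 kb bins from 22.4 Mb. The last of these, from 22.6 Mb, was the densest bin of the pericentromere and was covered to 48.6%. In bins of 50 kb the counts from 22.4 Mb on were 1, 15, 14, 19, 24 and 31. The block then ended sharply, with 3 regions in the next 50 kb. Its density was 397.7 per Mb, 1.62 times that of the pericentromere beyond it (interval from 1.29 to 2.01), and 35.1% of it was covered.

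Beyond the block came the longest stretch of the pericentromere without a region, 208.8 kb between 22713535 and 22922374. It contained the only empty 100 kb bin of the pericentromere, from 22.8 Mb. Regions resumed at 22922374 with 17 in the bin from 22.9 Mb and continued to the end of the last region of 3L at 24535737. Over these 1.61 Mb there were 397 regions, 246.1 per Mb, covering 28.7%. The last run of at least 3 bins in a row with at least 10 regions each began at 23.2 Mb and held 335 regions in 12 bins. With bins of 200 kb and at least 20 regions each, the run began at 23 Mb and reached the end of the arm. Such runs of 100 kb bins occurred at 3 places on 3L, 2 of them in the pericentromere, and the third lay between 13.5 and 13.8 Mb with 67 regions.

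**Figure D1:**
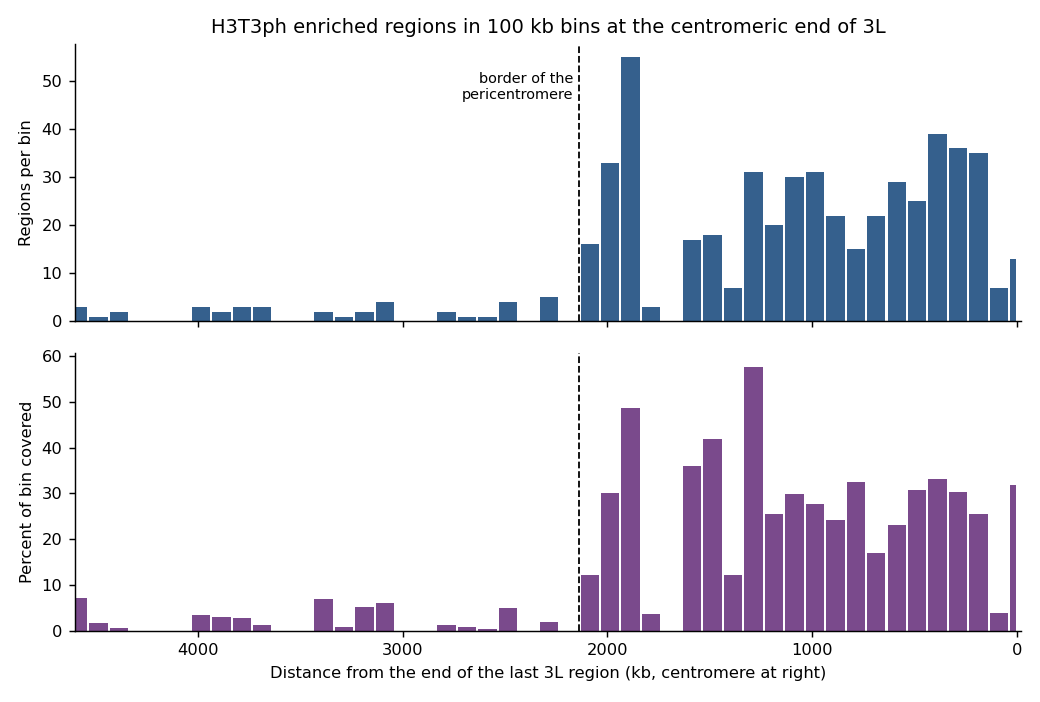
Number of H3T3ph regions (upper panel) and percent of sequence that they cover (lower panel) in 100 kb bins of the centromeric end of 3L, against distance in kb from the end of the last region, with the centromere at the right and the last bin 35.7 kb long. The dashed line marks the border of the pericentromere, beyond which the arm-side block of 16, 33 and 55 regions per bin, the empty bin and the long dense stretch follow each other.

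Bins of the pericentromere varied widely. Over its 22 bins the number of regions ran from 0 to 55 with a median of 22, and 18 bins held at least 10. The covered share had a median of 28.8% and reached 57.7% in the bin from 23.2 Mb, where 31 regions had a median width of 1473 bp. 3LHet was similar in number but more even, with 6 to 43 regions per bin, a median of 24.5 and no empty bin among 26. On the rest of 3L 91 of 224 bins were empty and 3 held at least 10 regions. Near the end of the arm the bin from 24.4 Mb was sparse, with 7 regions and 3.88% covered, and it contained the second-longest gap, 43.9 kb from 24440744 to 24484673. The gap that ranked next, 39.2 kb from 23076807 to 23116030, reached into the sparse bin from 23.1 Mb, which held 7 regions.

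Regions of the pericentromere were wide compared with 3LHet and the whole rest of 3L. Their median width was 762 bp, with quartiles of 335 and 1468 bp and a maximum of 10229 bp. Medians were 426.5 bp on 3LHet and 397 bp on the rest of 3L. The 33 regions in the 2 Mb of 3L before the border were wider, with a median of 864 bp. Regions of at most 50 bp were 1.79% of the pericentromeric ones (9 regions) and 18.2% of those on the rest of 3L (58 regions). The 108 regions wider than 1600 bp were 21.4% of the pericentromeric regions and held 54.3% of the covered bp. The median region contained 219 IP reads and 154 input reads, which sets the precision of single regions.

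The widest region was 3L:23000249-23010477, 10229 bp with 3364 IP and 2713 input reads. Scaled to the reads of each library this is an IP to input ratio of 1.4, with a 95% exact (Clopper-Pearson) interval from 1.33 to 1.47. All such intervals cover counting error only, and they take reads as independent molecules, which reads amplified by PCR are not. Next in width were 3L:23219614-23227256 (7643 bp, ratio 1.42), 3L:23732287-23739644 (7358 bp, ratio 1.25), 3L:22949605-22955850 (6246 bp, ratio 1.18) and 3L:23606801-23612753 (5953 bp, ratio 1.53). All of these 5 lay beyond the long gap, and 3 of them between 22.9 and 23.3 Mb. The widest region of 3LHet, 3LHet:1134711-1148257, had 13547 bp and a ratio of 1.87 (interval from 1.79 to 1.95). That of the rest of 3L, 3L:21150776-21156336, had 5561 bp and a ratio of 1.16. The 5 regions with the most IP reads were the first 4 of these and 3L:22975894-22979605, which had 2041 IP and 1651 input reads in 3712 bp and an input RPKM of 18.7, the highest of the pericentromere. RPKM is the read number scaled to the width of the region and to the reads of its library.

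Neighboring regions lay close together. The median gap was 704 bp, and 223 of 503 gaps (44.3%) were no longer than 500 bp. On 3LHet this share was 51.6%, and on the rest of 3L it was 7.86%, with a median gap of 28853 bp. When regions within 500 bp were joined, the 504 regions gave 281 blocks with a median of 1245 bp, and 25 of them were longer than 5 kb. Only 32.9% of the regions stood alone, against 85.9% on the rest of 3L and 26.8% on 3LHet.

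The longest joined block was 3L:23016310-23032416. It held 7 regions in 16.1 kb, of which 96.2% was covered, and its ratio was 1.41 (interval from 1.35 to 1.48). Next came 3L:22949605-22965058, 15.5 kb with 7 regions and a ratio of 1.22, and 3L:23000249-23015666, 15.4 kb with 2 regions and a ratio of 1.4. These 3 lay within 100 kb of each other, on the arm side of the stretch beyond the gap, and their ratios were below the 1.51 of all pericentromeric regions. The next in length lay farther toward the centromere, at 3L:23269890-23283705 (13.8 kb, ratio 1.47) and 3L:24066249-24077594 (11.3 kb, ratio 1.73).

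Regions became narrower toward the centromere. For description the stretch beyond the long gap was divided into 3 segments of equal length, 537.8 kb each. From the arm to the centromere they are the outer segment (from 22922374), the middle segment (from 23460163) and the inner segment (from 23997951). The outer segment held 107 regions with a median width of 1466 bp, the middle one 134 with 656 bp, and the inner one 156 with 509.5 bp. The number rose from 199.0 to 249.2 and 290.1 per Mb, and the inner segment had 1.46 times the density of the outer one (interval from 1.13 to 1.88). The covered share did not follow, at 35.7%, 25% and 25.3%. In the middle and inner segments, more and narrower regions thus spanned less sequence than in the outer one. Over the 17 bins of this stretch the median width had Pearson's r of -0.79 with position and Spearman's rho of -0.77, whereas the number of regions had r of 0.18. These bins share the 2 libraries and are neighbors, so the correlations are a description.

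**Figure D2:**
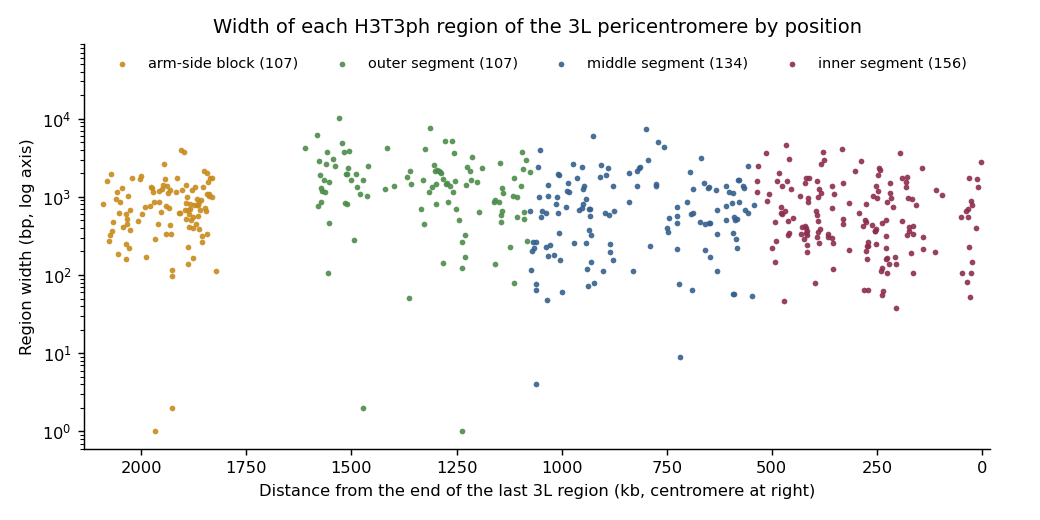
Width in bp on a log axis of each of the 504 regions against distance in kb from the end of the last 3L region, colored by stretch. The white space is the gap of 208.8 kb, and beyond it the median width falls from 1466 bp in the outer segment to 509.5 bp in the inner segment.

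The IP exceeded the input in the listed regions of the pericentromere by a modest factor. An excess was required for a region to be listed, so only its size is described. Over all 504 regions there were 172771 IP and 129723 input reads, 0.822% and 0.546% of the library totals implied by the counts and RPKM values (21013056 and 23747069 reads). The pooled ratio was 1.51 (interval from 1.49 to 1.52). Single ratios, computed for the 500 regions that had any input read, ran from 1.16 to 29.4 with a median of 1.66 and quartiles of 1.48 and 1.96. A ratio of at least 2 was found in 123 of the 504 regions, or 24.4% (Wilson interval from 20.9 to 28.3%), against 47.5% of the whole list. Here regions without input reads were included, set against a floor of 3 input reads. They numbered 4 in the pericentromere, 10 on 3LHet and 28 on the rest of 3L. The share was 39.7% on 3LHet and 42.9% on the rest of 3L, so that on this measure the pericentromere was low. By contrast, 230 regions, or 45.6% (interval from 41.3 to 50%), had a deposited p below 0.001, against 39.0% of the whole list, 51.2% on 3LHet and 7.84% on the rest of 3L. That p depends on the number of reads and so on width.

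High ratios belonged to narrow regions. The ratio of single regions had Spearman's rho of -0.79 with width over the 500 regions. All 46 regions with a ratio of at least 3, counting those without input reads, were 171 bp wide or narrower. A narrow region has few reads and needs a high ratio to be listed, so ratios were compared within 6 classes of width. The highest ratio with input reads was that of 3L:23422972-23423051, 80 bp with 26 IP reads and 1 input read, and its interval from 4.83 to 1205 shows how little such a region fixes. Another 4 regions of 1 or 2 bp had 10 IP reads and no input read each, a ratio of at least 3.77 against a floor of 3 input reads in each.

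Among the 433 regions at least 200 bp wide, no ratio exceeded 2.81. That value belonged to 3L:24356951-24357277, which had 82 IP and 33 input reads in 327 bp (interval from 1.85 to 4.34). It was also the region with the highest lower limit. Next by lower limit were 3L:24046089-24046362 (274 bp, ratio 2.68), 3L:23601721-23602101 (381 bp, ratio 2.56), 3L:24353421-24354949 (1529 bp, ratio 2.08) and 3L:22670338-22671130 (793 bp, ratio 2.23). Of these 5, 3 lay in the inner segment and 2 of them within 4 kb of each other. By the same rule the leading region of 3LHet, 3LHet:1927770-1928044, had a ratio of 5.52 (interval from 3.25 to 9.92), and that of the rest of 3L, 3L:13613520-13613772, had 3.39 (interval from 2.01 to 5.94).

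The lowest ratios came from wide regions of high input. 3L:23118230-23122390 had 1336 IP and 1302 input reads in 4161 bp, a ratio of 1.16 (interval from 1.07 to 1.25). It was followed by 3L:22949605-22955850 and 3L:23712983-23715133 (both 1.18), 3L:22922374-22926608 (1.19) and 3L:23721044-23723436 (1.21). Their input levels lay between 13.2 and 16.9 RPKM, above the upper quartile of 9.91 RPKM over the 504 regions. The last of these and 3L:23712983-23715133 lie in the bin from 23.7 Mb, and the others between 22.9 and 23.2 Mb.

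The ratio rose toward the centromere beyond the gap. It was 1.38 in the outer segment (interval from 1.37 to 1.4), 1.52 in the middle one (1.5 to 1.54) and 1.67 in the inner one (1.65 to 1.70). The inner segment exceeded the outer one 1.21-fold (interval from 1.19 to 1.23), and 1.16-fold within classes of width (1.14 to 1.18). The same order held among regions wider than 1600 bp, with 1.36 over 47 regions, 1.43 over 25 and 1.59 over 23, and among those of over 800 and up to 1600 bp, with 1.39, 1.57 and 1.65. Among wide regions of like width the rise was thus also present. In regions of over 400 and up to 800 bp the values were 1.60, 1.60 and 1.72, with overlapping intervals. No rise was seen in narrower classes, with 2.01, 2.07 and 2.03 over 200 and up to 400 bp and 2.96, 2.94 and 2.73 over 50 and up to 200 bp, again with overlapping intervals, and the outer segment held 5 and 7 regions of these classes.

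Pooled over the regions of each segment, the rise in ratio went along with a lower input level and little change in the IP level. The IP level over the regions was 15.5, 15.0 and 15.5 RPKM in the outer, middle and inner segment, a quotient of inner to outer of 1.0. The input level was 11.2, 9.88 and 9.26 RPKM, a quotient of 0.829. The pooled levels mix widths, since regions wider than 1600 bp held 74.3% of the covered bp in the outer segment and 44.1% in the inner one. Among regions wider than 1600 bp the IP was 15.7, 15.4 and 16.0 RPKM and the input 11.5, 10.8 and 10.1 RPKM. Over 800 and up to 1600 bp the IP was 14.7, 14.8 and 15.2 RPKM and the input 10.6, 9.44 and 9.17 RPKM. Over 200 and up to 400 bp, where the ratio did not rise, both levels rose. The IP was 12.2, 13.8 and 15.8 RPKM there and the input 6.07, 6.66 and 7.81 RPKM. Since a region was listed for its excess over input, these levels describe listed regions and not the sequence between them. The part of the input level in the rise was not tested further.

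Single bins departed from the trend. The ratio per 100 kb bin started at 1.27 from 22.9 Mb, reached 1.63 and 1.66 from 23.4 and 23.5 Mb, fell to 1.32 from 23.7 Mb and peaked at 1.79 from 24.3 Mb (interval from 1.73 to 1.86). The bins from 22.9 and 23.7 Mb had the highest input of this stretch, 14.6 and 11.8 RPKM, beside 8.34 RPKM in the bin from 24.3 Mb. Their IP levels were 18.5 and 15.6 RPKM, and that of the bin from 24.3 Mb was 14.9 RPKM. Over the 17 bins, position had r of 0.80 with the ratio (rho 0.84), -0.60 with the input level (rho -0.48) and 0.10 with the IP level (rho 0.37). The last region of 3L, 3L:24532942-24535737, had 998 IP and 730 input reads in 2796 bp.

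**Figure D3:**
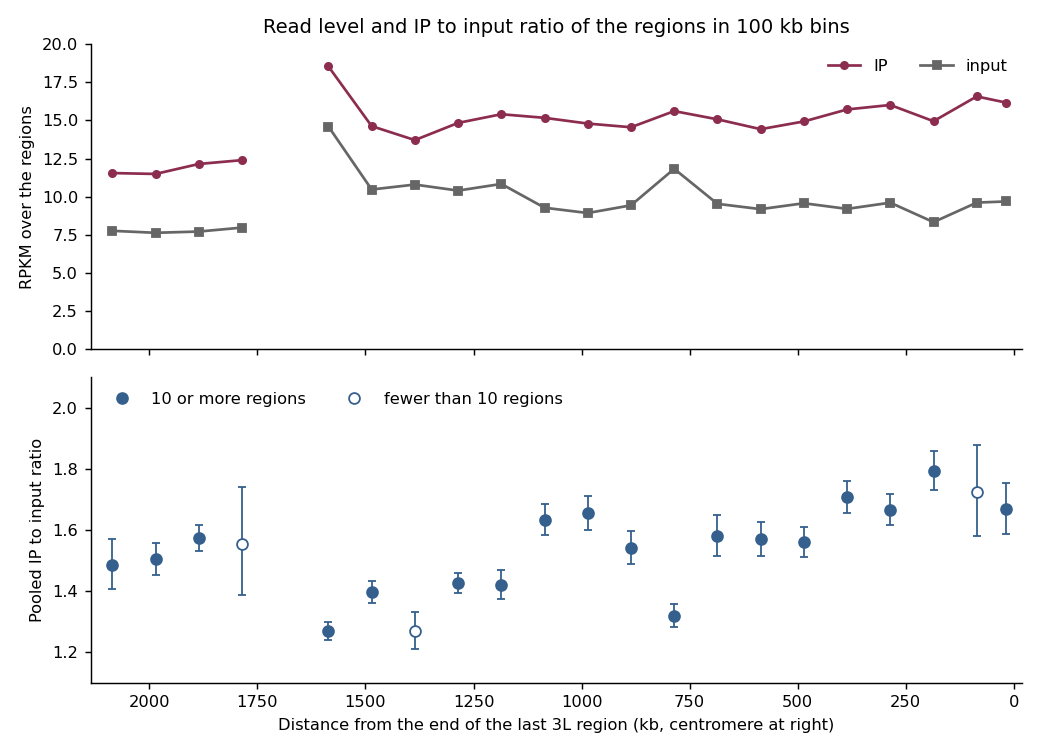
Upper panel, RPKM of IP and input over the regions of each 100 kb bin of the pericentromere. Lower panel, pooled IP to input ratio with 95% exact intervals on an axis that does not start at 0, both against distance in kb from the end of the last 3L region, with open symbols for bins of fewer than 10 regions and the ratio at 1.27 just beyond the gap and 1.79 in the bin from 24.3 Mb.

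Compared with the regions beyond the gap, the arm-side block differed in its levels more than in its ratio. Its regions had 11.9 RPKM in the IP and 7.71 RPKM in the input, 0.773 and 0.753 times the levels of the regions beyond the gap. Its 4 bins were alike, between 11.5 and 12.4 RPKM in the IP and between 7.64 and 7.98 RPKM in the input. The ratio of the block was 1.54 (interval from 1.51 to 1.57), 1.03 times that of the regions beyond the gap (interval from 1.01 to 1.05) and 0.993 times within classes of width (interval from 0.972 to 1.01). Compared with the rest of 3L, the block had 0.916 times the IP level and 0.824 times the input level. Its ratio was 1.11 times that of the rest of 3L (interval from 1.09 to 1.14). Why the levels differed between the block and the regions beyond the gap was not tested. The regions of the block had a median width of 751 bp and none exceeded 3970 bp. A p below 0.001 was reached by 30.8% of them and a ratio of at least 2 by 19.6%. Without the block the pooled ratio of the pericentromere was 1.5, so that the value of the whole did not rest on it.

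Against 3LHet, the pericentromere had the lower ratio. The pooled ratio of 3LHet was 1.67 (interval from 1.66 to 1.69), and the pericentromere was at 0.899 times this value, or 0.918 within classes of width (interval from 0.909 to 0.928). The IP level was 0.832 and the input level 0.925 times that of 3LHet. The classes of width did not differ alike. Over 1600 bp the ratios were 1.43 (interval from 1.41 to 1.44) and 1.59 (1.58 to 1.61), whereas over 200 and up to 400 bp they were 2.03 (1.95 to 2.11) and 1.96 (1.91 to 2.01). Within the pericentromere the inner segment was the one that matched 3LHet. Its ratio was 1.0 times that of 3LHet within classes of width, with an interval from 0.987 to 1.02, and its wide regions had the same 1.59. Its IP and input levels were both 0.874 times those of 3LHet.

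Against the rest of 3L, the pericentromere had a somewhat higher pooled ratio. The pooled ratio of the rest of the arm was 1.39 (interval from 1.37 to 1.4), and the pericentromere exceeded it 1.09-fold, or 1.13-fold within classes of width (interval from 1.11 to 1.14). The direction depended on how regions were weighted. The median of single ratios, over regions with input reads, was 1.70 on the rest of 3L and 1.66 in the pericentromere, a quotient of 0.979. Narrow regions, whose ratios are high, were more frequent on the arm, as given above. Among 100 kb bins of at least 10 regions, not split by width, the order was also the other way. The 3 such bins of the rest of 3L, between 13.5 and 13.8 Mb, had a median ratio of 1.72. The 18 such bins of the pericentromere had a median of 1.56. In regions wider than 1600 bp the ratio was 1.43 in the pericentromere and 1.21 over 34 regions of the rest of 3L (interval from 1.18 to 1.23). A deposited p below 0.001 was reached by 86.1% of the wide pericentromeric regions (Wilson interval from 78.3 to 91.4%), by 95% on 3LHet (88.8 to 97.8%) and by 11.8% on the rest of 3L (4.67 to 26.6%). Among regions of over 50 and up to 200 bp the ratios of the pericentromere and the rest of 3L were 2.84 and 3.03, with overlapping intervals.

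**Figure D4:**
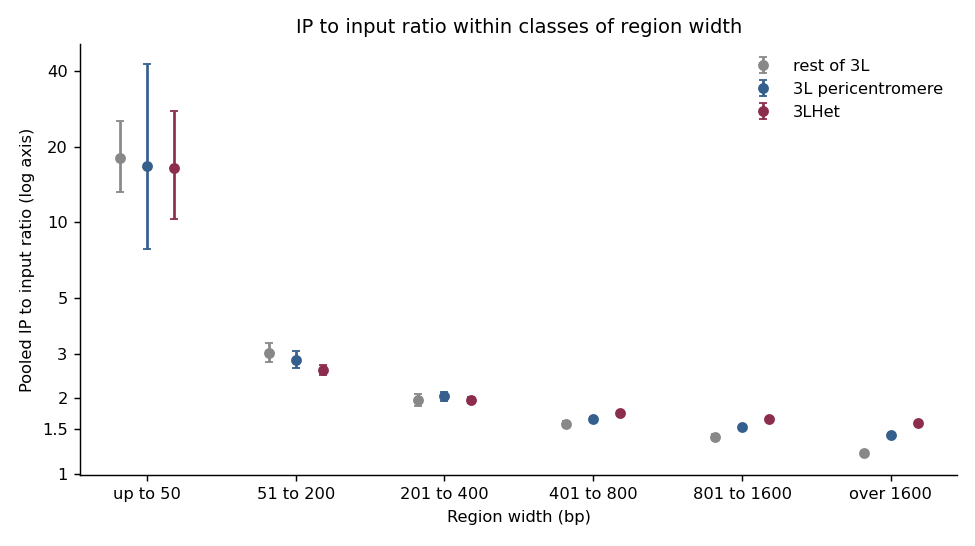
Pooled IP to input ratio on a log axis by class of region width for the 3L pericentromere, 3LHet and the rest of 3L, with 95% exact intervals. All 3 fall with width and spread apart in the widest class, at 1.43, 1.59 and 1.21.

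**Figure D5:**
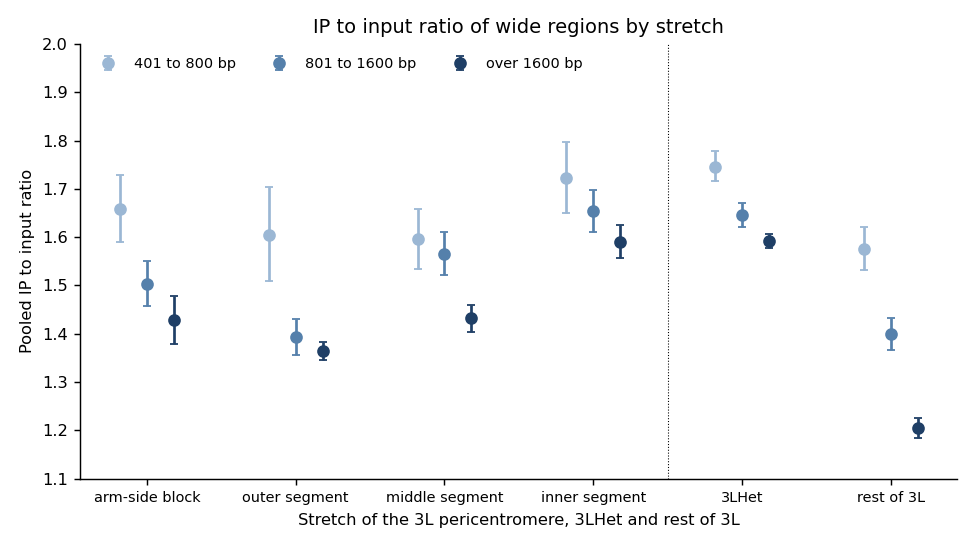
Pooled IP to input ratio with 95% exact intervals for 3 classes of wide regions in the arm-side block and the 3 segments of the pericentromere, beside 3LHet and the rest of 3L, on an axis that does not start at 0. Over 1600 bp the outer segment stands at 1.36 and the inner segment at 1.59, level with 3LHet.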

How the data were processed

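H3T3ph ChIP-seq was performed in S2 cells with 1 IP and 1 input library. The authors placed 50 nt reads on dm3 by means of Bowtie 0.12.5, keeping single placements with up to 2 mismatches, removed duplicate excess and called regions with htSeqTools 1.4.0 (at least 10 reads, adjusted p below 0.05). The submitters' processing notes also name FastQC 0.10. The deposited list gives raw read counts of both libraries per region. It also gives the authors' RPKM values, scaled to width and library reads, and the authors' Benjamini-Hochberg adjusted p-value. Its columns are unnamed. The first of each pair was taken as the IP, since its RPKM was higher in 6387 of 6387 regions.

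Ratios are sums of IP over input reads scaled to the library totals. Quotients have 95% intervals on the log odds ratio, and those within width classes are Mantel-Haenszel estimates. Densities are compared with an exact conditional interval. Coordinates are dm3, counted from 1, and lengths end at the last region (24535737 on 3L, 2546139 on 3LHet). No dm3 sequence or annotation was used here, so no gene is named. Single regions were named by rule: the 5 widest, those with most IP reads, highest lower limit and lowest ratio, and those at the border and end. The region with the highest ratio and those without input reads were named after their values were seen, as was the division into stretches at the longest gap. Members, lists and rules were chosen with earlier results of these data known. Alternatives were other borders, bins, thresholds, widths, joining and weighting. The code was tested on simulated data. Computations ran in Python 3.11.15 (pandas 2.3.3, numpy 2.4.6, scipy 1.17.1), and plots were drawn by matplotlib 3.10.9.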

Additional observations from a re-analysis of the deposited data

How the results depend on the processing

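Of 54 recomputed values, 28 kept their direction and size, 25 moved and 1 reversed, where a density ratio whose interval includes 1 was counted as moved when it crossed 1. The density of the pericentromere relative to the rest of 3L was 14.4 with the border at 22 Mb and 12.8 at 23 Mb, 96.5 with p below 0.001, 30.8 with p below 0.01, 20.8 with regions of at least 100 bp and 10.0 with neighbors joined. Relative to 3LHet it was 0.771 with the border at 22 Mb and crossed 1, to 1.03, with neighbors joined. The covered share was 22.3% with the border at 22 Mb, 18.6% with p below 0.001 and 22.2% with p below 0.01. The share of regions with a ratio of at least 2 was 12.2% with p below 0.001, 18.9% with p below 0.01 and 19.8% with regions of at least 100 bp. The share was 71.8% at a ratio of 1.5 and 9.13% at 3. The pooled ratio was 1.53 with the border at 23 Mb and 1.66 as a median over regions. Over 3LHet it was 0.913 with the border at 23 Mb and 0.918 within width classes. Over the rest of 3L it was 1.06 with p below 0.001, 1.11 with p below 0.01, 1.1 with at least 10 input reads, 1.13 within width classes and 0.979, the reversed value, as a median over regions. The dense bins began at 23 Mb with 200 kb bins of at least 20 regions, which changes bin length and minimum together. Stricter lists hold fewer regions by construction, and otherwise the cause was not tested. Leaving out the arm-side block, chosen after seeing the data, moved none of the 4 values it was run for, at 1.5, 0.896, 1.08 and 25.7% for the pooled ratio, its quotients to 3LHet and to the rest of 3L, and the share with a ratio of at least 2. No paired analysis was possible because there was 1 library of each kind, and for the same reason no library could be left out. Regions of at most 50 bp hold too few reads for their ratios to be compared.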
